A study of Mus musculus with 2 samples.

Results

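Eicosanoids are short-lived lipid signals made from arachidonic acid, and the 10 genes described here encode the enzymes that make them in leukocytes: *Pla2g4a*, *Ptgs1*, *Ptgs2*, *Hpgds*, *Ptges*, *Tbxas1*, *Alox5*, *Alox5ap*, *Lta4h* and *Ltc4s*. They were taken by symbol from the 32524 genes listed for each library, and all 10 were found. The list was chosen by hand with earlier results of these data known, including the β-glucan to PBS ratio of *Hpgds*, so every ratio below is given as a description and none was tested. The cells were sorted as CD45+CD11b+ from the synovium of hind paws of wild-type C57BL/6 mice on day 17 of arthritis. The mice were aged 7 to 10 weeks when the experiments began. One group had received a single intraperitoneal dose of 1 mg β-glucan, a fungal cell wall polysaccharide, 7 days before arthritis was induced, and the control group had received PBS. All mice in both groups were arthritic, and 4 mice were pooled into 1 library per group, so there is no replicate and no cell can be traced to a mouse. The sample labels describe arthritis induced by monoclonal antibodies and lipopolysaccharide, whereas the series design and the study's methods describe transfer of K/BxN serum, and the data do not tell these apart.

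The pathway starts when cytosolic phospholipase A2 releases arachidonic acid from membrane phospholipids. Cyclooxygenases then convert it to prostaglandin H2, from which terminal synthases make prostaglandin D2, prostaglandin E2 or thromboxane A2, while 5-lipoxygenase, aided by its activating protein, makes leukotriene A4, which is turned into leukotriene B4 or leukotriene C4. In inflamed joints prostaglandin E2 and leukotriene B4 are known for pain, swelling and neutrophil recruitment, and prostaglandin D2 and leukotriene C4 are classical products of mast cells.

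After cells with fewer than 500 genes or more than 10% mitochondrial UMIs were left out, 5696 of 7196 barcodes remained in the β-glucan library, with a median of 12458 UMIs, and 4553 of 5760 in the PBS library, with a median of 14475. The libraries shared 7 barcodes, 2 of them among the cells kept. Clustering with the eicosanoid genes left out of the principal components gave 19 clusters, numbered 0 to 18. A cluster was given a name ending in "-like" from fixed marker genes. The main myeloid compartment comprised 11 of them, with 4598 β-glucan cells (80.7%) and 3661 PBS cells (80.4%): macrophage-like clusters 0, 1, 2, 5, 6 and 7, antigen-presenting-like clusters 3 and 4, type 1 dendritic-like cluster 16, and the unnamed clusters 10 and 17. The other clusters carried markers of B cells (8), neutrophils (9), T cells (11), stromal cells (12), mast cells (13), cytotoxic or natural killer cells (14), dividing cells (15) and endothelium (18), several of which the sort should have removed. *Itgam*, which encodes CD11b, had a UMI in 78.0% of β-glucan and 78.9% of PBS cells. Cluster 3 made up 6.41% of β-glucan and 12.9% of PBS cells and held a group of 80 *Arg1*-high cells found only in the PBS library, and cluster 17 had 5 β-glucan and 57 PBS cells. In the compartment 19.5% of β-glucan and 17.7% of PBS UMIs came from genes spanning at least 100 kb.

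The genes differed in the cells that carried them. Levels are in CPM, which scales a gene's UMIs to the total UMIs of the same cells, with exact 95% Poisson intervals, which cover counting error only. Each gene was compared across clusters and not with other genes. The neutrophil-like cluster 9 held 88.0% of all *Ptgs2* UMIs of the β-glucan library and 86.0% of those of the PBS library. At resolution 1 it split into a shallower group with 1381 β-glucan and 1415 PBS *Ptgs2* UMIs and a deeper group with 1352 and 572. In the deeper group 37.0% of cells were among those of highest doublet score, and the part of doublets in this share was not tested. Macrophage-like cells, which were 61.1% and 53.3% of the cells, held 86.0% and 87.6% of the *Ltc4s* UMIs. They held 75.7% and 78.6% of the *Hpgds* UMIs and 79.1% and 74.1% of the *Alox5* UMIs. Stromal-like cells were 2.46% and 2.04% of the cells and held 22.0% and 19.9% of the *Ptges* UMIs. In the plot of UMI sources, *Ptgs2* stands apart from the other members as the gene supplied mainly by the neutrophil-like cluster, both groups counted.

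**Figure D1:**
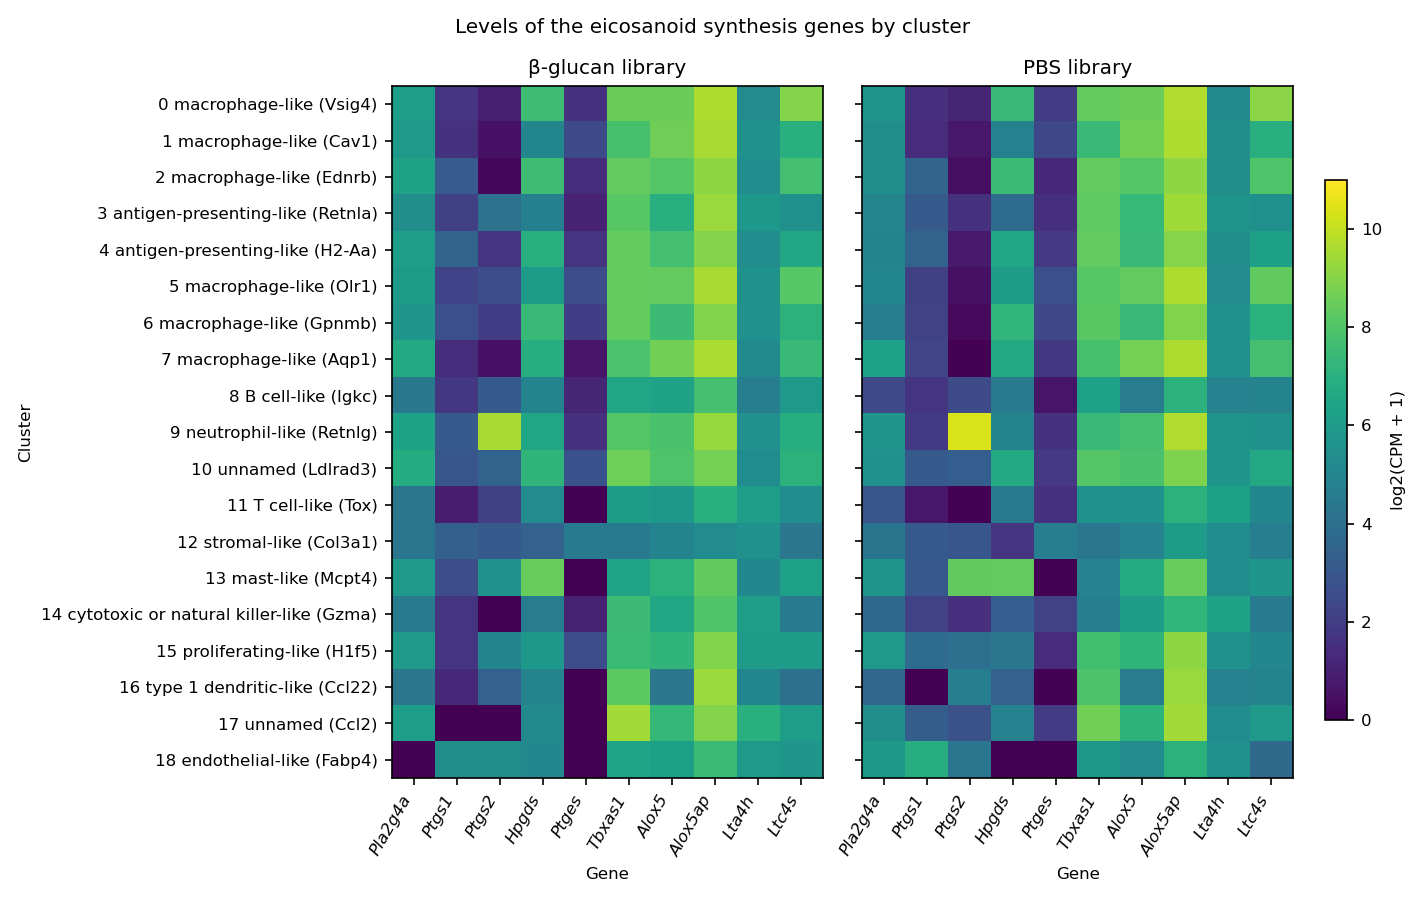
Level of each gene as log2(CPM + 1), by colour, in each of the 19 clusters (rows, with the class and the leading gene) for the β-glucan library (left) and the PBS library (right). Read down a column: *Ptgs2* is highest in cluster 9 (751 and 1340.3 CPM), *Hpgds* in cluster 13, *Ltc4s* in cluster 0 and *Ptges* in cluster 12.

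**Figure D2:**
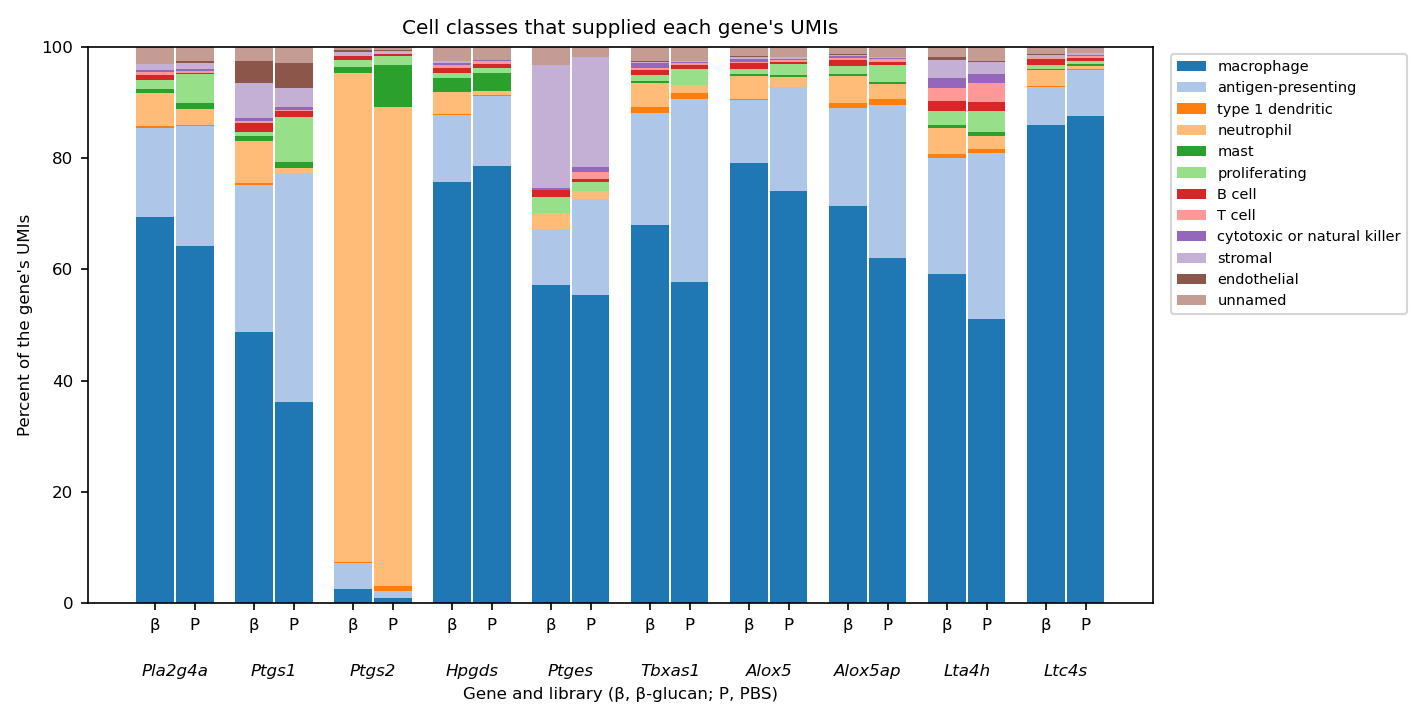
Percent of each gene's UMIs (vertical axis) that came from each cell class (colours), for the β-glucan (β) and PBS (P) libraries. Neutrophil-like cells hold 88.0% and 86.0% of the *Ptgs2* UMIs, and macrophage-like cells over 70% of those of *Hpgds*, *Alox5* and *Ltc4s* in both libraries.

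*Pla2g4a* encodes cytosolic phospholipase A2α, the enzyme that releases arachidonic acid. It lies at chr1:149705369-149837053 on the minus strand of GRCm39 and spans 132 kb. Its level in the compartment was 67.8 CPM (95% interval 65.9 to 69.9) in the β-glucan library and 40.7 CPM (39.1 to 42.3) in the PBS library. The β-glucan level was 1.67-fold the PBS level (interval 1.59 to 1.75), a log2 ratio of 0.74, and this was the only member with a higher level in the β-glucan library in all 9 compartment clusters of at least 100 cells per library. In each of the 9 the counting interval of the ratio excluded 0, and the log2 ratios ran from 0.40 in cluster 0 to 1.26 in cluster 10. In the macrophage-like cluster 7, led by *Aqp1* and *Lyve1*, where its mean level over both libraries was highest, the values were 106 and 77.6 CPM. In the antigen-presenting-like cluster 4, led by *H2-Aa*, they were 69.8 and 30.5 CPM, and in cluster 6, led by *Gpnmb*, 52.8 and 24.7 CPM. For shares of cells, here and below, each cell of at least 5000 UMIs was thinned to 5000, and cells with fewer were left out. After thinning, 25.1% (23.8 to 26.4) of β-glucan and 16.6% (15.3 to 17.9) of PBS compartment cells had a *Pla2g4a* UMI. Unthinned and over all compartment cells, the shares were 44.1% and 34.3%. Thinned B cell-like cells, taken as the reference for free RNA, gave 3.33% and 1.66%. That reference has limits: 14.9% of its β-glucan and 6.12% of its PBS cells were among those of highest doublet score. Its own *Pla2g4a* level was 20.7 CPM in the β-glucan and 4.39 CPM in the PBS library, from 51 and 8 UMIs. The part of free RNA or of doublets in these values was not tested. Genes spanning at least 100 kb had a median log2 ratio of 0.14 in the compartment, against -0.06 for genes under 10 kb. After cells of both libraries were matched within clusters by how much of their UMIs such long genes supplied, the log2 ratio of *Pla2g4a* was 0.56. This matching also left equal numbers of cells of both libraries in each cluster. Equal numbers alone kept the log2 ratio within the counting interval of the reported value, 0.67 to 0.81. The cause of the change was not tested.

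**Figure D3:**
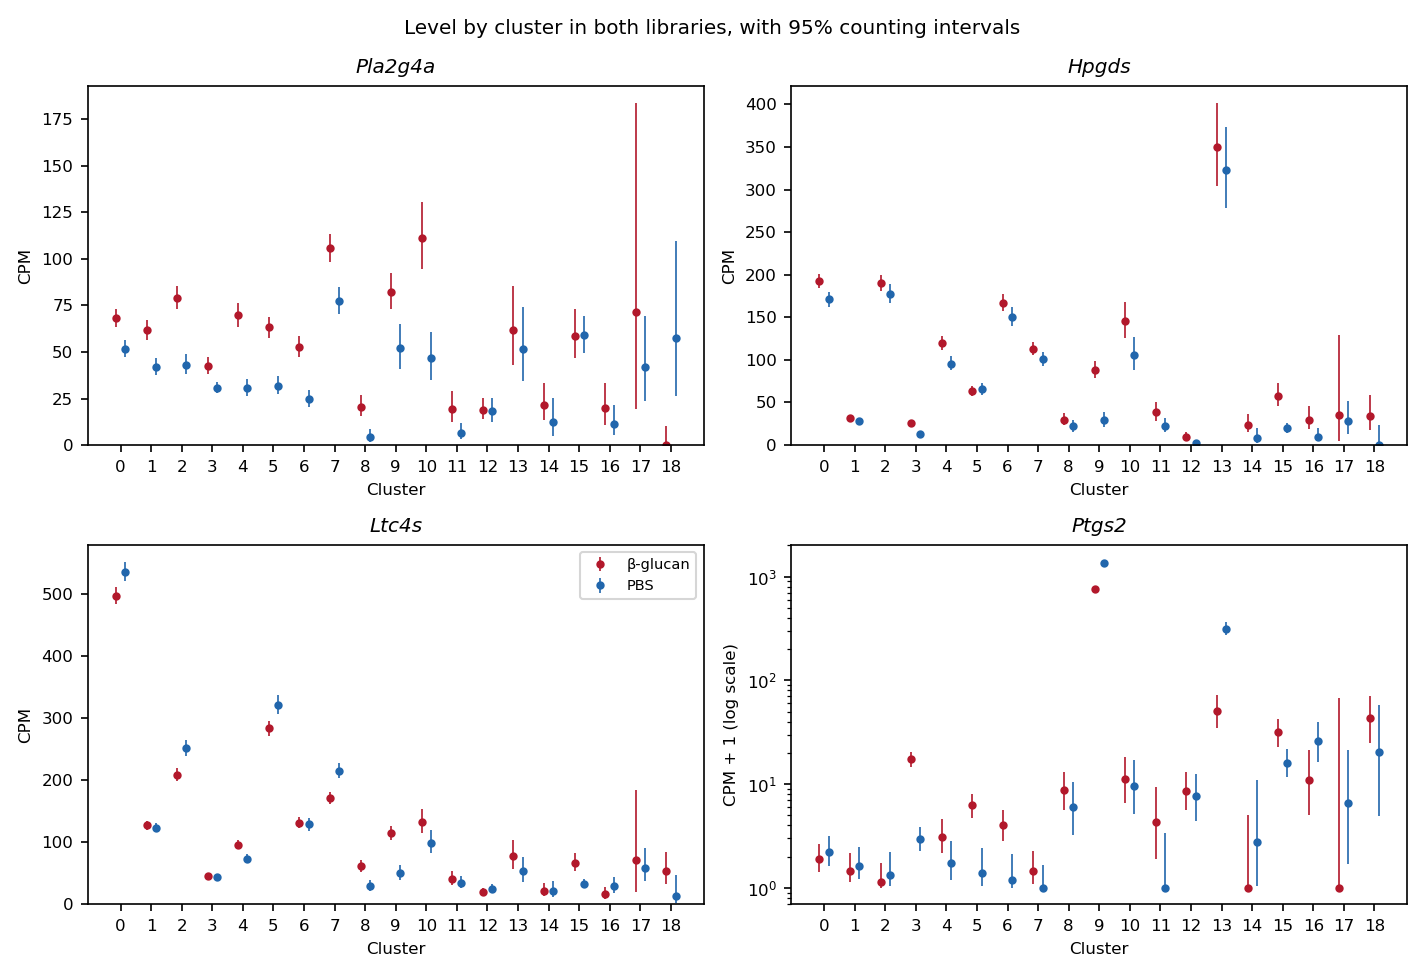
Level (CPM, vertical axis; CPM + 1 on a log scale for *Ptgs2*) of 4 members in each cluster (horizontal axis) in the β-glucan (red) and PBS (blue) libraries, with exact 95% Poisson intervals. *Pla2g4a* is higher in the β-glucan library in each of clusters 0 to 7, whereas *Ltc4s* is higher in the PBS library in clusters 0, 2, 5 and 7.

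Cyclooxygenase 1, encoded by *Ptgs1*, is the form that many cells carry at rest. It was low in most clusters, and the compartment had 4.38 CPM (3.89 to 4.92) in the β-glucan and 5.40 CPM (4.83 to 6.02) in the PBS library, from 286 and 326 UMIs. Its mean level was highest in the endothelial-like cluster 18, at 42.5 and 115 CPM, from 15 and 18 UMIs in 27 and 18 cells. The interval of each library lay above those of cluster 4, the next in the order, with 10.7 and 10.6 CPM. In the antigen-presenting-like cluster 3, led by *Retnla* and *Ccl17*, the level was 3.25 CPM in the β-glucan and 7.78 CPM in the PBS library, a log2 ratio of -1.26 (-1.94 to -0.63). The 80 *Arg1*-high cells found only in the PBS library carried 41 of the 108 *Ptgs1* UMIs of that cluster, and without cluster 3 the log2 ratio of the compartment moved from -0.30 to -0.05.

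Cyclooxygenase 2, encoded by *Ptgs2*, is the inducible form and the source of most prostaglandin made in acute inflammation. In the neutrophil-like cluster 9 its level was 751 CPM (723 to 780) in 254 β-glucan cells and 1340.3 CPM (1282 to 1401) in 172 PBS cells. The next cluster in the order was the mast-like cluster 13, with 49.8 and 314 CPM. After thinning, 75.2% and 81.9% of neutrophil-like cells had a *Ptgs2* UMI, against 0.69% and 0.41% of compartment cells. The cluster was not uniform: at resolution 1 it split into a shallower group of 109 β-glucan and 126 PBS cells with a median of 4278 UMIs, and a deeper group of 146 and 46 cells with a median of 18216 UMIs. In the deeper group 37.0% of cells were among those of highest doublet score, against 1.28% in the shallower group. The *Ptgs2* level of the shallower group was 2739 CPM in the β-glucan and 2324 CPM in the PBS library, and that of the deeper group 432 and 655 CPM. The log2 ratio was -0.83 (-0.92 to -0.75) over the whole cluster and 0.24 (0.13 to 0.35) in the shallower group. Without the cells of highest doublet score the whole cluster had 969.9 and 2168 CPM, and the log2 ratio was then -1.16 (-1.25 to -1.07). The direction of the difference between the libraries thus turned in the shallower group and not when the cells of highest doublet score were left out.

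Most *Ptgs2* UMIs of the mast-like cluster came from a few cells. All 177 PBS UMIs and 11 of the 29 β-glucan UMIs came from 15 basophil-like cells, 3 of the β-glucan and 12 of the PBS library, that separated at resolution 1. The remaining 99 mast-like PBS cells had no *Ptgs2* UMI, and the remaining 94 β-glucan cells had 18. In the compartment *Ptgs2* had a level of 3.72 CPM (3.27 to 4.22) in the β-glucan and 1.39 CPM (1.11 to 1.72) in the PBS library, both under the minimum of 5 CPM set for counting a gene. The log2 ratio of 1.42 (1.06 to 1.79) turned to -0.14 with a stricter filter on cells. It turned to -0.16 with all the left-out genes kept in the principal components. Cluster 3 carried 130 of the 243 β-glucan UMIs, in 23 of 365 cells, and 27 of the 84 PBS UMIs, in 9 of 586 cells. In the macrophage-like cluster 5, led by *Olr1* and with *Atf3* and *Cxcl2* among its leading genes, 10 of 539 β-glucan cells held 41 UMIs. A single cell held 22 of these. In the PBS library 2 of 321 cells of that cluster held 2 UMIs. The summed level of 8 neutrophil markers in the compartment went the other way, at 54.3 CPM in the β-glucan and 150.2 CPM in the PBS library, with 1 of 8 higher in the β-glucan library and none at 0. Their part in the *Ptgs2* values was not tested.

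*Hpgds* encodes hematopoietic prostaglandin D synthase, which makes prostaglandin D2 in mast cells, macrophages and some T cells. It lies at chr6:65094001-65121983 on the minus strand of GRCm39 and spans 28.0 kb. The mast-like cluster 13 had the highest level in both libraries, 350.0 CPM (304 to 401) in the β-glucan and 323 CPM (278 to 374) in the PBS library, above every other cluster beyond the counting intervals. Among compartment clusters the order was led by cluster 2 (190 and 177 CPM), cluster 0 (193 and 171 CPM) and cluster 6 (167 and 151 CPM). Clusters 2 and 0, led by *Ednrb* and by *Vsig4*, overlapped in their values. The lowest macrophage-like level was in cluster 1, led by *Cav1*, *Spp1* and the osteoclast protease gene *Ctsk*, at 31.7 and 27.9 CPM, and cluster 3 was lower still at 25.8 and 13.4 CPM. The range between compartment clusters was thus wider than any difference between the libraries within a cluster.

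Across the compartment *Hpgds* had a level of 114 CPM (111 to 116) in the β-glucan and 88.4 CPM (86.0 to 90.8) in the PBS library, from 7430 and 5337 UMIs, a ratio of 1.29 (1.24 to 1.33). *Hpgds* was higher in the β-glucan library in 8 of the 9 clusters of at least 100 cells per library. In 6 of them the counting interval excluded 0. In these 9 clusters the log2 ratio was under the 0.36 of the compartment except in clusters 3 and 10. The log2 ratios were between -0.05 and 0.46 in 8 of these clusters and 0.94 in cluster 3. Cluster 3 had the lowest *Hpgds* level of these clusters and made up a larger share of the PBS cells. Without it the log2 ratio of the compartment was 0.19 in place of 0.36, and with equal numbers of cells of both libraries drawn from each cluster it was 0.18. Both lie under 1.2-fold. With equal weight for each of the 10 compartment clusters that had a ratio, it was 0.40. 1 of these, the type 1 dendritic-like cluster 16, had a log2 ratio of 1.56 from only 21 and 8 UMIs. After thinning, 35.6% (34.2 to 37.1) of β-glucan and 30.4% (28.9 to 32.0) of PBS compartment cells had an *Hpgds* UMI, against 10.5% and 6.08% of B cell-like and 0.76% and 2.35% of stromal-like cells. When cells were matched within clusters by how much of their UMIs long genes supplied, the log2 ratio of *Hpgds* was 0.08. That matching also left equal numbers of cells of both libraries in each cluster, which alone gave 0.18. The summed level of 8 mast cell markers in the compartment was 16.1 CPM in the β-glucan and 11.7 CPM in the PBS library, with 6 of 8 higher in the β-glucan library and none at 0, and its part in the *Hpgds* values was not tested. *Mitf*, which encodes a transcription factor of mast cells, macrophages and osteoclasts, was at 654 and 373 CPM in the compartment, a log2 ratio of 0.81 (0.79 to 0.83). *Mitf* was higher in the β-glucan library in each of the 19 clusters. So was *Hpgds*, except in cluster 5, at 63.3 and 65.7 CPM (log2 ratio -0.05, interval -0.26 to 0.15). In some clusters this rested on few *Hpgds* UMIs, with 12 and 0 in cluster 18 and 2 and 10 in cluster 17. How many of all genes were higher in as many clusters was not counted, so the shared direction is not read as a link between *Mitf* and *Hpgds*. *Mitf* spans 214 kb, and in the cells matched on long genes it was at 588 and 398 CPM.

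RefSeq promoters of the GRCm38.p6 build were given for 9 of the 10 genes and were searched on both strands for CACGTG and CATGTG, the core letters bound by MITF and related factors, in the 250 bases before the start. CACGTG was in none of them, and CATGTG, read as CACATG on the other strand, was in those of *Hpgds* and *Pla2g4a*. These were the members past 1.2-fold in the compartment, and their windows are shown for that reason, 5′ to 3′ on the strand of the gene with the motif in capitals. Over all 32851 promoter windows of this length, 6.02% held CACGTG, 12.3% held CATGTG and 17.6% held either. The windows of the members are too few to set a share against these. The *Hpgds* window is chr6:65144731-65144980 with its motif 80 bases before the start. The *Pla2g4a* window is chr1:149961291-149961540 with 2 matches, 231 and 202 bases before the start, and the window of a second *Pla2g4a* start held neither motif. A match describes letters in this window and not binding.
Hpgds: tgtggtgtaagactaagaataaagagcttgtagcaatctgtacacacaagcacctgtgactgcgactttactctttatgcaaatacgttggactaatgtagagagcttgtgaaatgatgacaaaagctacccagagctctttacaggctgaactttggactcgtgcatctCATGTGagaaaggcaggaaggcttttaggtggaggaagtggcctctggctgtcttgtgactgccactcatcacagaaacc
Pla2g4a: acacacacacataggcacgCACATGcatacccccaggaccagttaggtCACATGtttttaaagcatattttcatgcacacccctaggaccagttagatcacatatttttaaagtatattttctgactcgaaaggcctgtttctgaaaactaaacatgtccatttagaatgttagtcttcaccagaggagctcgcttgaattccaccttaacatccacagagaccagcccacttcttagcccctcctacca

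*Ptges* encodes the inducible prostaglandin E synthase. Its mean level was highest in the stromal-like cluster 12, at 21.3 CPM (16.0 to 27.9) in 140 β-glucan cells and 25.3 CPM (18.5 to 33.7) in 93 PBS cells, and the intervals lay above those of the next cluster in the order. It was low in the compartment, at 2.60 CPM (2.23 to 3.02) and 2.85 CPM (2.44 to 3.31), and the libraries did not differ there beyond counting error (log2 ratio -0.13, interval -0.44 to 0.18). Next in the order were cluster 5 (4.98 and 5.39 CPM) and cluster 1 (4.58 and 4.16 CPM). In mast-like, type 1 dendritic-like and endothelial-like cells no *Ptges* UMI was found in either library. For mast-like cells the exact interval for 0 counts reached 6.55 CPM in the library with the wider interval, so a level under this could have gone unseen.

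*Tbxas1* encodes thromboxane A synthase and spans 209 kb. Its level in the compartment was 309 CPM (305 to 314) in the β-glucan and 285 CPM (281 to 289.6) in the PBS library, a ratio of 1.08 (1.06 to 1.11). It was spread broadly over myeloid clusters. After thinning, 66.6% of β-glucan and 63.9% of PBS compartment cells had a UMI, against 5.34% and 5.88% of stromal-like cells. Within the compartment the unnamed cluster 10 had 385 and 276 CPM. Cluster 17 had 717 and 402 CPM, from 40 UMIs in its 5 β-glucan cells. Outside the compartment the log2 ratio was 0.19 in B cell-like, 0.20 in stromal-like and -0.18 in dividing cells. In other clusters the libraries lay further apart, with 184 and 24.7 CPM in the cytotoxic or natural killer-like cluster 14. The levels were 85.8 and 28.4 CPM in the mast-like cluster 13, and 269 and 172 CPM in the neutrophil-like cluster 9. Cells of cluster 14 numbered 86 and 56, and 19.8% and 8.93% of them were among those of highest doublet score, and the part of doublets in this value was not tested. In the shallower neutrophil-like group the *Tbxas1* log2 ratio was -0.24 (-0.85 to 0.35), against 0.65 in the whole cluster and 1.18 (0.85 to 1.54) in that cluster without the cells of highest doublet score.

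The gene of 5-lipoxygenase, *Alox5*, had a level of 289 CPM (285 to 293) in the β-glucan and 276 CPM (272 to 280.4) in the PBS library, a ratio of 1.05 (1.03 to 1.07). Its order over the clusters was the same at the top in both libraries: cluster 7 (408 and 415 CPM) lay above cluster 1 (386 and 405 CPM), which lay above cluster 0 (372 in each), though the intervals of neighbours overlapped in at least 1 library. The antigen-presenting-like clusters were lower, with 206 and 177 CPM in cluster 4 and 123 and 166 CPM in cluster 3, and the type 1 dendritic-like cells of cluster 16 had 19.8 and 23.9 CPM, the lowest on the mean of both libraries. In B cell-like cells the values were 80.6 and 23.6 CPM, and 14.9% of the β-glucan and 6.12% of the PBS cells of that cluster were among those of highest doublet score. Cluster 3 was the one large compartment cluster with a lower *Alox5* level in the β-glucan library beyond counting error (log2 ratio -0.43, interval -0.53 to -0.32). The 80 PBS-only *Arg1*-high cells of that cluster had 352 CPM and carried 749 of its 2301 PBS *Alox5* UMIs. The ratio of the cluster without these cells was not computed.

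*Alox5ap* encodes the 5-lipoxygenase activating protein, which presents arachidonic acid to the enzyme. After thinning it had a UMI in 91.4% of β-glucan and 92.2% of PBS compartment cells. The compartment levels were 671 CPM (664 to 677) and 697 CPM (691 to 704), a ratio of 0.962 (0.949 to 0.975). The log2 ratio was below 0 in all 9 large compartment clusters, between -0.16 and -0.0017, and in 3 of them the counting interval excluded 0. The pattern over cell types differed from that of *Alox5* in the dendritic cells: cluster 16 had 646 and 658 CPM of *Alox5ap*, close to cluster 3 at 651 and 697 CPM, while its *Alox5* level was the lowest of all clusters on the mean of both libraries. Stromal-like cells were lowest at 39.0 and 67.6 CPM.

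*Lta4h* encodes leukotriene A4 hydrolase, which makes leukotriene B4. The compartment had 44.4 CPM (42.8 to 46.1) in the β-glucan and 44.1 CPM (42.4 to 45.8) in the PBS library, a log2 ratio of 0.01 with an interval of -0.07 to 0.09. Leaving aside cluster 17, which had 5 β-glucan cells, its highest levels were in lymphoid cells, 68.2 and 83.1 CPM in cytotoxic or natural killer-like cells and 67.9 and 72.4 CPM in T cell-like cells, which were above the macrophage-like clusters in both libraries. On the mean of both libraries the lowest was in B cell-like cells, at 25.1 and 28.0 CPM, followed by type 1 dendritic-like cells at 32.5 and 27.7 CPM. Within the compartment the log2 ratio was 0.33 (0.08 to 0.59) in cluster 5 and -0.37 (-0.63 to -0.11) in cluster 7.

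*Ltc4s* encodes leukotriene C4 synthase, and its level differed between the macrophage-like clusters. Cluster 0, whose leading genes are *Vsig4* and *S100b*, had 498 CPM (485 to 511) in the β-glucan and 537 CPM (522 to 552) in the PBS library. Cluster 5 followed with 284 and 322 CPM, then cluster 2 with 208 and 252 CPM and cluster 7 with 171 and 215 CPM. Clusters 6 and 1 had 131 and 128 CPM and 127 and 123 CPM, and cluster 3 had 44.8 and 44.5 CPM. Clusters 0 and 5 each stood above the next cluster in the order beyond the counting intervals of both libraries, and cluster 2 lay above cluster 7 beyond counting error within each library. After thinning, 82.2% of β-glucan and 83.5% of PBS cells of cluster 0 had an *Ltc4s* UMI, against 11.3% and 10.6% in cluster 3. The compartment as a whole had 209 and 199 CPM, a log2 ratio of 0.07 (0.03 to 0.11), but clusters differed in direction. In clusters 0, 2, 5 and 7, those with the highest *Ltc4s* levels, the level was lower in the β-glucan library, with log2 ratios from -0.33 to -0.11 and intervals below 0. In clusters 4 and 10 it was higher, at 0.38 (0.20 to 0.57) and 0.42 (0.07 to 0.77). Without cluster 3 the compartment ratio was -0.08. Mast-like cells, in which the enzyme is well known, had 77.2 and 53.3 CPM, under those of clusters 0, 5, 2, 7, 6 and 1 in both libraries.

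**Figure D4:**
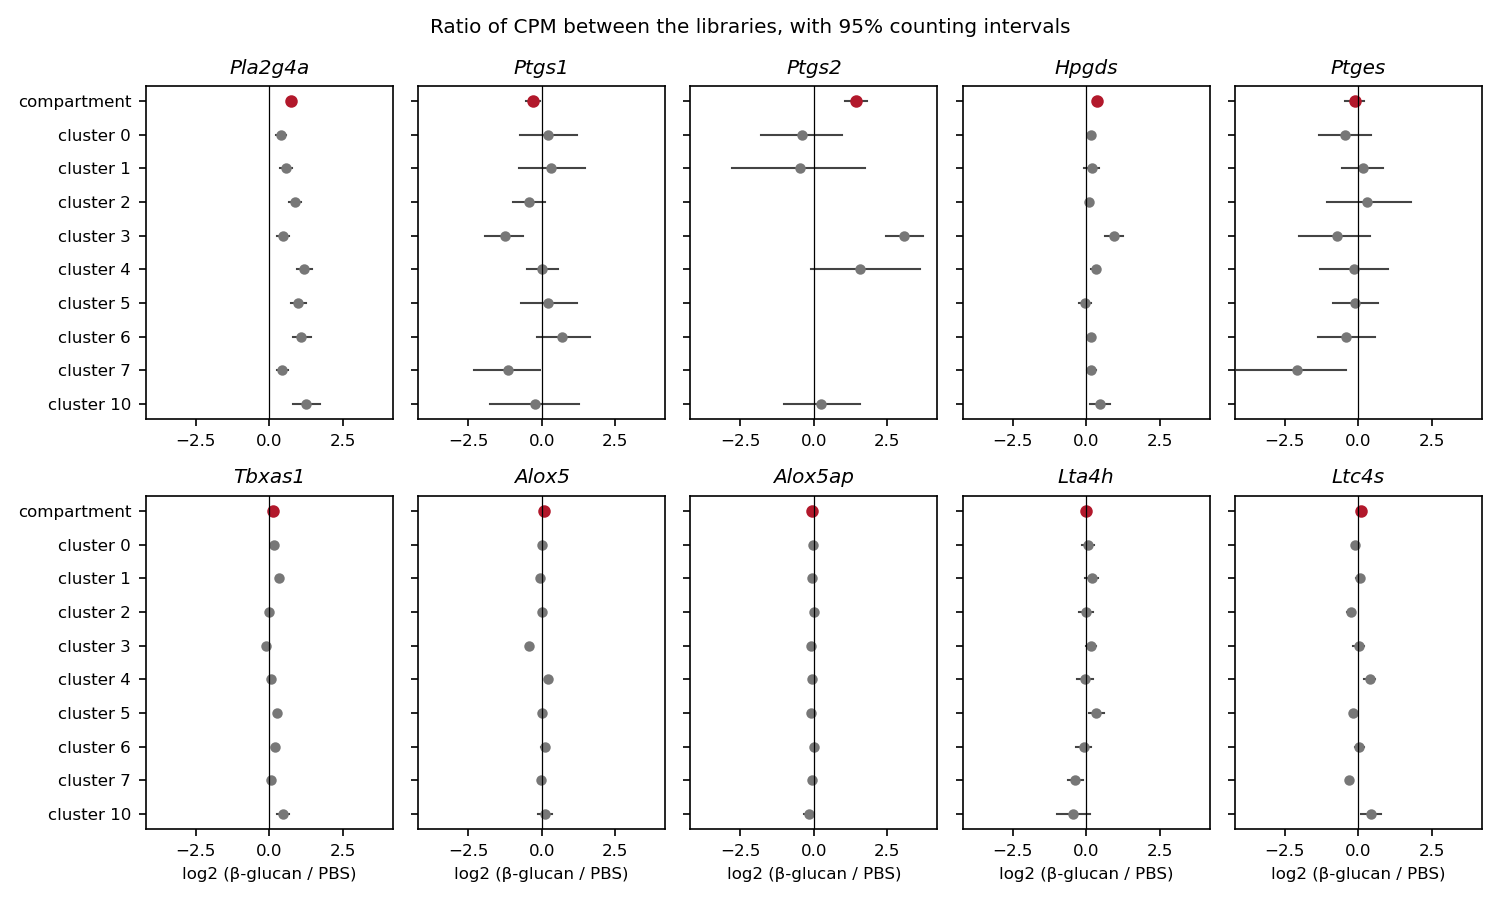
Log2 ratio of the β-glucan to the PBS level (horizontal axis) of each gene in the whole compartment (red) and in each of its 9 clusters with at least 100 cells per library (grey), with exact 95% counting intervals (a ratio is drawn only where both libraries have more than 3 UMIs). *Pla2g4a* lies above 0 in all 9 clusters, *Alox5ap* lies just below 0, and *Ltc4s* lies on both sides.

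In the compartment 7 of the 10 members reached a mean of 5 CPM over both libraries. Of these, *Pla2g4a* and *Hpgds* were at least 1.2-fold higher in the β-glucan library and none was at least 1.2-fold lower. The background among all 9810 genes of at least 5 CPM was 6.83% higher and 4.48% lower by that fold, with a median log2 ratio of 0.03, and the median of the 7 members was 0.07. The ratio nearest to the fold among the rest was that of *Tbxas1* at 1.08. The members are too few to read a share from, and with 1 library per group nothing tells how far pools of mice given the same treatment would differ. The call of *Pla2g4a* was kept under all 17 alternative settings tried, with log2 ratios between 0.56 and 0.80, and that of *Hpgds* under 14 of them, with log2 ratios between 0.08 and 0.40, as the plot of alternatives shows.

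**Figure D5:**
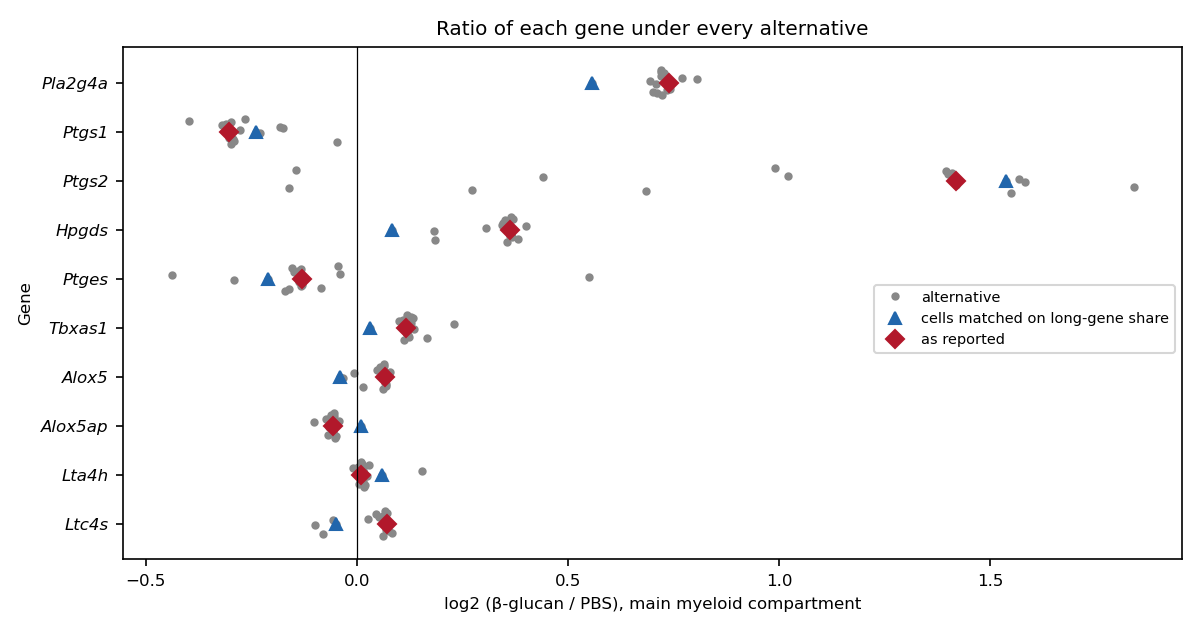
Log2 ratio of the β-glucan to the PBS level in the main myeloid compartment (horizontal axis) of each gene as reported (red diamonds), under each alternative setting (grey points) and with cells matched by the part of their UMIs that long genes supplied (blue triangles). *Pla2g4a* keeps to between 0.56 and 0.80, *Hpgds* runs from 0.08 to 0.40, and *Ptgs2*, which is under 5 CPM, runs from -0.16 to 1.84.

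Of 57 other genes of the pathway, all were in the files and 27 reached 5 CPM in the compartment. None was at least 1.2-fold higher in the β-glucan library and 2 were at least 1.2-fold lower, and the median log2 ratio of the 27 was -0.03. Among all genes of at least 5 CPM, 6.83% were higher and 4.48% lower by that fold. The 27 genes are too few to set a share against these. None of the 3 phospholipase and lipase genes, 4 re-esterification genes, 4 prostanoid export and breakdown genes, 3 leukotriene export and conversion genes, 3 prostanoid receptors or 3 regulators that reached 5 CPM passed the fold, and none of the 5 other lipoxygenase genes reached 5 CPM. *Ltb4r1*, which encodes the high-affinity receptor of leukotriene B4, was at 22.4 and 41.5 CPM, a log2 ratio of -0.89 (-0.98 to -0.79). Most of its UMIs lay in cluster 3, where the levels were 135 and 147 CPM, and without that cluster the ratio was -0.55 (-0.75 to -0.35). In cluster 1 the levels were 15.1 and 28.4 CPM. *Ptges2*, a further prostaglandin E synthase gene, was at 9.98 and 12.4 CPM (log2 ratio -0.32, interval -0.47 to -0.16).

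None of the 10 pathway genes of highest level in the compartment was past 1.2-fold. *Anxa1*, whose product restrains phospholipase A2 activity, was at 526 and 624 CPM (log2 ratio -0.25), and *Cotl1*, whose product binds 5-lipoxygenase, at 438 and 468 CPM. *Hpgd*, which encodes the main prostaglandin-degrading enzyme, was at 183 and 163 CPM with its highest level in cluster 0 (305 and 289 CPM), and *Abcc1*, the leukotriene C4 exporter, was at 169 and 145 CPM. *Ptges3*, *Lpcat2*, *Akr1b3*, *Daglb*, *Acsl4* and *Ephx1* had log2 ratios between -0.05 and 0.05. *Ptgis* and *Ptgds* are named after their values were seen. *Ptgis*, the prostacyclin synthase gene, was in the compartment at 0.29 and 0.20 CPM and in stromal-like cells at 157 and 154 CPM. *Ptgds*, the other prostaglandin D synthase gene, had no UMI in the compartment of either library.

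*Alox15*, which encodes the 12/15-lipoxygenase, was under the 5 CPM minimum and is named after its values were seen. It had 3 UMIs in 3 of 4598 β-glucan compartment cells and 572 UMIs in 61 of 3661 PBS cells, or 0.05 and 9.47 CPM, a log2 ratio of -7.69 (-9.97 to -6.13). Of these, 569 lay in cluster 3 of the PBS library, in 58 of 586 cells, where the 365 β-glucan cells had none. Set against a floor of 3 counts in the β-glucan library, 0.38 CPM, the PBS level of 41.0 CPM in that cluster was 109-fold higher. The exact interval for 0 counts reached 0.46 CPM, so 109-fold is not a lower bound. Most of these UMIs were not in the *Arg1*-high cells: that group held 32 of them and the other PBS cells of cluster 3 held 537. A further 274 UMIs were in 14 of 71 dividing PBS cells, and the 51 dividing β-glucan cells had none. Since each library pools 4 mice, it cannot be told whether these cells came from 1 mouse or from several.

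The genes whose levels over 17 clusters, the mean of log2(CPM + 1) of both libraries, were most like those of each member were named from 10515 candidates. Cluster 17, with 5 β-glucan cells, and cluster 18, with 18 PBS cells, were too small and are not among the 17. *Ptgs1* was thus compared without the endothelial-like cluster 18, where its mean level was highest. Points share library and depth, and the correlations are descriptions. *Pla2g4a* was most like *Plekhg3*, *Prrg2* and *Rab31* (r = 0.94, 0.90 and 0.89). *Ptgs1* was most like *Tent5a*, *Esr1* and *Fggy* (0.81, 0.79 and 0.77), and *Ptgs2* like *Hcar2*, *Cxcr2* and *Acod1* (0.96, 0.95 and 0.93), of which *Cxcr2* is a neutrophil chemokine receptor gene. *Hpgds* was most like *Cant1*, *Slc7a8* and *Galc* (0.93, 0.93 and 0.92), *Ptges* like *Ugp2*, *Htra3* and *Cav1* (0.89, 0.89 and 0.88), and *Tbxas1* like *Sh3tc1*, *Zfp710* and *Camta2* (0.97, 0.96 and 0.95). *Alox5* was most like *Itgam*, *Ubtd1* and *Clec5a* (0.96, 0.94 and 0.93), *Alox5ap* like *Spi1*, *Pip5k1c* and *Vamp8* (0.96, 0.96 and 0.94), *Lta4h* like *Gosr1*, *Frmd8* and *Ccng1* (0.81, 0.79 and 0.78), and *Ltc4s* like *Naa60*, *Ip6k3* and *Slc17a5* (0.97, 0.94 and 0.93). *Itgam* is the marker of the sort and *Spi1* encodes the myeloid factor PU.1. Between members the highest values were 0.89 for *Tbxas1* with *Alox5ap* and 0.86 for *Alox5* with both *Ltc4s* and *Pla2g4a*.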

How the data were processed

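Synovial CD45+CD11b+ cells of 2 libraries, 1 per group, were measured by 10x 3′ single-cell RNA-seq. The deposited values are counts of UMIs per gene and barcode, made by the authors with Cell Ranger 7.0.0 per the submitters' processing notes; the gene identifiers match GRCm39, whether intronic reads were counted is not given in the sources used here, and no cell annotation was used. The members and lists were chosen with earlier results of these data known. Cells were kept from 500 genes upward and up to 10% mitochondrial UMIs. Seurat 5.3.0 with sctransform 0.4.2 used 3000 variable genes, 30 principal components, 20 neighbours and resolution 0.7. The principal components were computed without the eicosanoid genes and the genes that the study compares between the groups, *Mitf* among them. A cluster was named where at least 3 markers of a list were each detected in at least 25% of its cells, and stayed unnamed where its cells were under 50% of their libraries' median UMIs and fewer than 2 markers were among its 10 leading genes. Scrublet (scanpy 1.11.5) called 0 and 3 cells as doublets, 0% and 0.07%, so its calls were not used and no cell was removed. As an alternative, the 328 and 210 cells of highest score, as many as the number of cells implies, were left out.

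Counts were summed over the cells of each library and cluster. Intervals are 95% exact Poisson intervals for CPM, exact Clopper-Pearson intervals for shares and exact conditional binomial intervals for ratios, and cover counting error only. Ratios and their intervals were checked on simulated compartment sums with known fold changes. The sums were drawn from the same counting model, so this checks the calculation and not the spread between mice. No p-value was computed, since each group is 1 library. A gene was counted as past the fold at 1.2-fold with a mean of at least 5 CPM. Named were all members, the 3 genes most like each, pathway genes past the fold or among the 10 of highest level, and *Mitf*. *Ptgis*, *Ptgds* and *Alox15* are outside this rule and were chosen after their values were seen. edgeR 4.0.16 gave the TMM factors of 1 alternative. Coordinates are from GENCODE for GRCm39 (31870 of 32524 genes matched), and promoter sequences are from RefSeq for GRCm38.p6. *Ptgs2* overlaps *Ptgs2os* on the other strand.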

Additional observations from a re-analysis of the deposited data

Results flagged for a closer look

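For 6 members the level was at least 1.2-fold higher in the β-glucan library in one cluster and at least 1.2-fold lower in another, each beyond counting error and in clusters of at least 100 cells per library. *Ptgs1* had a log2 ratio of 1.52 in the neutrophil-like cluster 9, from 28 and 4 UMIs, and -1.26 in cluster 3. *Ptgs2* had 3.06 in cluster 3 and -0.83 in cluster 9. *Alox5* had 1.77 in the B cell-like cluster 8 and -0.43 in cluster 3, where the PBS-only *Arg1*-high cells carried 749 of 2301 PBS UMIs. *Alox5ap* had 0.69 in cluster 8 and -0.36 in cluster 9. *Lta4h* had 0.33 in cluster 5 and -0.37 in cluster 7. *Ltc4s* had 1.2 in cluster 9 and -0.33 in cluster 7. How many of all genes would meet the same rule was not counted, so the 6 are not read as a trait of these genes. With 1 library per group the difference between clusters was not tested.

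Cells of highest doublet score were 14.9% of β-glucan and 6.12% of PBS cells in cluster 8 and 14.6% and 20.9% in cluster 9. Their part in the values of cluster 8 was not tested. In cluster 9 the log2 ratio of *Alox5ap* was -0.65 (-0.78 to -0.52) without them and -0.15 (-0.32 to 0.02) in the shallower neutrophil-like group alone, where it was no longer past the fold or beyond counting error. That of *Ltc4s* was 3.53 without them, from 252 and 6 UMIs, and 2.08 in the shallower group, from 14 and 4 UMIs. *Ptgs1* had 18 and 2 UMIs without them and 2 UMIs in each library in the shallower group. *Ptgs2* was at -1.16 without them and 0.24 in the shallower group. *Hpgds* in cluster 9 was at 87.9 and 29.0 CPM in all cells, at 79.6 and 2.95 CPM without those cells, and at 11.9 and 3.28 CPM, from 6 and 2 UMIs, in the shallower neutrophil-like group alone.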

How the results depend on the processing

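The number of members at least 1.2-fold higher in the β-glucan library was 2 as reported. It was 1 with cells matched on the share of UMIs from long genes, with equal numbers of cells of both libraries in each cluster and without cluster 3, the last 2 chosen after seeing the data. *Hpgds* was the gene lost in each, and the cause was not tested beyond the construction of these settings. It was 3 over all cells of the sort and with a minimum level of 1 CPM, with *Ptgs2* the gene added in both. The number at least 1.2-fold lower was 0 as reported. It was 1 with totals without mitochondrial and ribosomal protein genes, with cells thinned to 5000 UMIs, over all cells of the sort and with a minimum level of 1 CPM. In the last 2 of these settings that gene was *Ptgs1*, whose mean level in the compartment was 4.89 CPM. The share of all genes past the fold was not counted under the alternative settings, so these counts are not set against a background. In the neutrophil-like cluster the log2 ratio of *Ptgs2* turned from -0.83 to 0.24 and that of *Tbxas1* from 0.65 to -0.24 when only the shallower group of cells was counted, a setting also chosen after seeing the data. The class with the highest level stayed the same for 7 to 10 of the 10 members over 9 alternatives; the classes that changed were those of *Pla2g4a*, *Tbxas1* and *Alox5ap*. *Ptgs2* in the compartment ran from -0.16 to 1.84. All 20 shares of compartment cells with a UMI were higher unthinned, where cells under 5000 UMIs are also counted. Depth limits *Ptgs1*, *Ptgs2* and *Ptges* in the compartment. No paired analysis was possible because each group is 1 library.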
